A study of Homo sapiens with 6 samples.

Results

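This report describes the metallothionein genes MT2A, MT1E, MT1F, MT1G, MT1M and MT1X, the metal sensor gene MTF1 and the zinc exporter gene SLC30A1 in Ephexin1-depleted H1299 cells. These 8 genes were chosen by symbol, and all 8 were found among the 26255 rows of the expression table. H1299 is an established human lung cancer cell line. The RNA-seq experiment set 3 libraries of H1299 cells that carried a control shRNA (shControl) beside 3 libraries of H1299 cells that carried an shRNA against Ephexin1 (shEphexin1), to learn how Ephexin1 affects mRNA levels. Both shRNAs were expressed from a pSilencer2.1-U6 plasmid, whose selection marker is neo in the sample labels and hygromycin resistance in the study's methods. The cells were grown in RPMI-1640 with serum and antibiotics, and no zinc, cadmium or other metal treatment is named in the labels. The study's methods describe stable knockdown clones, and the library names of the shEphexin1 group share 1 stem, so the 3 libraries may be repeats of 1 clone. In that case the tests measure the spread between repeat libraries only.

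Metallothioneins are small, cysteine-rich proteins that bind zinc and copper in the cytosol and also take up toxic metals such as cadmium. When free zinc in the cell rises, the zinc finger protein MTF1 binds short DNA sequences called metal response elements in front of the metallothionein genes and of SLC30A1 and turns these genes on. SLC30A1 (ZnT1) sits in the plasma membrane and carries zinc out of the cell, so that storage and export are controlled by the same sensor. Glucocorticoids and oxidants are also known to raise metallothionein mRNA.

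The 6 metallothionein genes lie together on chromosome 16 (GRCh37). MT2A spans 56642496 to 56643409 and MT1X spans 56716382 to 56718108, both on the plus strand. MT1E (56659387 to 56661024), MT1M (56666571 to 56667893) and MT1F (56691643 to 56694610) lie between them on the same strand, and MT1G (56700642 to 56701977) lies between them on the minus strand. SLC30A1 (211744910 to 211752503) and MTF1 (38275246 to 38325264) are both on the minus strand of chromosome 1. Promoter windows from RefSeq (GRCh38.p14) were matched for 4 of the 8 genes, and each window was found once, letter for letter, on GRCh37, whose positions are given. The 250 bases before the start are shown for the 3 genes whose values separated the groups, and for MT1H, which was listed at 0 in every library and held the most matches among the metallothionein windows in the RefSeq table. Each is written from 5′ to 3′ on the strand of its gene. Capitals mark every match on either strand to TGCACNC or TGCGCNC, the core letters of a metal response element, where N is any base.
MT2A, chr16:56642246-56642495, plus strand: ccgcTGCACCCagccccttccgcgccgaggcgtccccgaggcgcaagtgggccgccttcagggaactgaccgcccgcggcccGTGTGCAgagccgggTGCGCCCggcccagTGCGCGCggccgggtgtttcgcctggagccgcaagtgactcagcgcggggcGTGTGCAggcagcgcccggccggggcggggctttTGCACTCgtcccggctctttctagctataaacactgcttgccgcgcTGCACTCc
MT1X, chr16:56716132-56716381, plus strand: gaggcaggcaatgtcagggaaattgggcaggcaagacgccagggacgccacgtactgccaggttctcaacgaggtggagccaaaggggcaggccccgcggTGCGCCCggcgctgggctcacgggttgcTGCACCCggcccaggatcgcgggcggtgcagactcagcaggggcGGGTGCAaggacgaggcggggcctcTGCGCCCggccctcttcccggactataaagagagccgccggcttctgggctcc
SLC30A1, chr1:211752504-211752753, minus strand: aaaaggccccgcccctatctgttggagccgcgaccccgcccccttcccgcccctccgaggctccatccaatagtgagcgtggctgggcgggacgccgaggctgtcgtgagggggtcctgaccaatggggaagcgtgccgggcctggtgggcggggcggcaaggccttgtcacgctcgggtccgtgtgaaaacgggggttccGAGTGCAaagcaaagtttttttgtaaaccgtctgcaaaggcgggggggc
MT1H, chr16:56703476-56703725, plus strand: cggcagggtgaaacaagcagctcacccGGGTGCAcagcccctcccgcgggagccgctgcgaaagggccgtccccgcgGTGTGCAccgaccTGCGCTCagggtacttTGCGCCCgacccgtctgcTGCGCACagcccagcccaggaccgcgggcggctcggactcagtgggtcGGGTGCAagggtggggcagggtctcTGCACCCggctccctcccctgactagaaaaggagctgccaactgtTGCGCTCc

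The MT2A window held 7 matches, 5 of them on the strand of the gene, and no match overlapped another in any of the 4 windows. Of the 35116 RefSeq windows of this length, 11 (0.0313%) held at least 7 matches. The MT1X window held 4 matches, a number reached by 0.370% of all windows. The SLC30A1 window held 1 match, on the opposite strand and between 43 and 49 bases before the start, and 24.8% of all windows held at least 1. The MT1H window held 8 matches, a number that 6 of all windows (0.0171%) reached. MT4, also listed at 0 in every library, and MT1B, above 0 in 2 libraries, each had 3 matches, a number reached by 1.58% of all windows. The MTF1 window held 0 matches. A match of these letters is a description of the sequence and does not show that MTF1 binds there.

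The 3 shControl libraries listed between 16958 and 17154 genes above 0 FPKM, and the 3 shEphexin1 libraries between 17126 and 17509. FPKM values divide the fragments counted for a gene by the length of its transcript and by the size of the library, so levels of different genes can be set side by side. Read numbers are unknown, and FPKM cannot tell more RNA per cell from a changed makeup of the cells. An entry of 0 FPKM need not mean that a gene is silent, since H3F3A, a histone gene of every cell type, has that entry in all 6 libraries. NGEF, the gene of Ephexin1, was at 13.3, 11.7 and 16.4 FPKM in the control libraries and at 9.81, 8.25 and 10.5 FPKM in shEphexin1, without overlap of the groups (log2 fold change -0.53, limma adjusted p = 0.103). VIM, KRT18 and KRT8, written down as markers of these cells, were at a mean of 2165, 88.9 and 6.78 FPKM in the control libraries and at 2492, 46.2 and 3.13 FPKM in shEphexin1. The blood marker PTPRC was listed at 0 in all 6 libraries, and the mean of the endothelial marker PECAM1 was at most 0.062 FPKM in a group and that of the fibroblast marker COL1A1 at most 0.269 FPKM. The part of the keratin levels in the results was not tested.

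MT2A, the most abundant metallothionein, was at 1052, 874 and 1231 FPKM in shControl replicates 1, 2 and 3. In the Ephexin1-depleted replicates 1, 2 and 3 it was at 1643, 1294 and 2021 FPKM. The lowest shEphexin1 library was above the highest shControl library, so the groups did not overlap. The mean of shControl was 1052 ± 178 FPKM and that of shEphexin1 1652 ± 364 FPKM (SD, n = 3 each), so that the depleted cells stood at 157% of the control. On the log2 scale MT2A differed by 0.64 (standard error 0.193), a 1.56-fold difference with a 95% interval from 1.14-fold to 2.13-fold. The adjusted p was 0.0970 over the 16020 genes tested with limma, in a fit without a replicate block. In that fit MT2A missed the threshold of 0.025 as well as the 2-fold limit. The two-sided exact permutation test gave p = 0.1, the smallest p that 3 libraries against 3 can reach. Within the shared replicate numbers, the shEphexin1 library was 1.56, 1.48 and 1.64 times the shControl library for replicates 1, 2 and 3.

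MT1X, the second metallothionein with appreciable mRNA, had 110, 83.7 and 124 FPKM in the shControl group. In the shEphexin1 libraries it was at 159, 144 and 184 FPKM. The groups did not overlap here either. The means were 106 ± 20.2 FPKM in the control libraries and 162 ± 20.1 FPKM in shEphexin1 (SD, n = 3 each), 153% of the control. The difference on the log2 scale was 0.63 (standard error 0.166, limma adjusted p = 0.0666), with a 95% interval from 1.18-fold to 2.02-fold, and the exact permutation p was again 0.1. The replicate-wise ratios of shEphexin1 to shControl were 1.45, 1.72 and 1.49.

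MT2A and MT1X kept nearly the same proportion to each other in every library. The FPKM of MT2A was between 8.98 and 10.995 times that of MT1X, and the ranges of this ratio overlapped between the groups, at 9.59, 10.4 and 9.96 in shControl and 10.4, 8.98 and 10.995 in shEphexin1. In both groups replicate 2 was the lowest library and replicate 3 the highest for both genes. Summed over the 16 metallothionein genes and pseudogenes in the table, the level was 1163, 958 and 1354 FPKM in the control libraries and 1804, 1439 and 2207 FPKM in shEphexin1. MT2A and MT1X together made up between 99.9% and 100% of that sum. Ranked by FPKM among all genes, MT2A stood between place 59 and place 71 in the shControl libraries and between place 14 and place 23 in the shEphexin1 libraries. MT1X stood between place 591 and place 794 and between place 336 and place 390, but ranks also depend on what the other highly expressed genes do.

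MT1E, MT1F, MT1G and MT1M, further copies that encode proteins of the same family, were at or close to 0. MT1F and MT1M were listed at 0 in all 6 libraries. MT1E was at 0, 0.243 and 0 FPKM in the control libraries and 0.316, 0 and 0.767 FPKM in shEphexin1. MT1G was at 0.339, 0 and 0 FPKM in the control libraries and 0.397, 0 and 1.01 FPKM in shEphexin1. Both were above 0 in 3 of the 6 libraries, their groups overlapped, and how many reads such low values stand for is unknown. Their fitted log2 fold changes of 1.13 for MT1E and 1.22 for MT1G had standard errors of 0.850 and 0.954 and adjusted p values of 0.485 and 0.509 from limma. With replicates 1 and 3 alone, MT1E passed the thresholds (log2 fold change 2.59, adjusted p = 0.0212), a setting that leaves out the 1 shControl library in which it was above 0, and over all alternatives its adjusted p ranged up to 0.823.

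Of the 10 other metallothionein genes and pseudogenes in the table, none passed the filter of 0.1 FPKM in 3 libraries. The brain metallothionein MT3 was at 0 in all shControl libraries and at 0.508, 0.146 and 0 FPKM in shEphexin1. The pseudogene MT1DP was listed at 0 in every shControl library and at 0.368, 0.806 and 0 FPKM in shEphexin1. MT1L was above 0 in 1 library and MT1B in 2. Counting MT1F and MT1M, 8 of the 16 metallothionein genes and pseudogenes were listed at 0 in every library.

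The family members resemble each other in sequence, which bears on how fragments could be assigned. Of all 50-base windows of the MT2A transcript (581 bases), 7.52% also occur in an annotated transcript of another gene, among them MT1G and MT1X. For the MT1X transcript used here (538 bases) the share was 55.8%, all of it with an unnamed gene model, ENSG00000259827, and the windows that MT2A shared with MT1X lay in other MT1X transcripts. The share was 10.3% for MT1E, 6.12% for MT1F, 19.9% for MT1G and 14.6% for MT1M. The SLC30A1 transcript shared 0 windows. The read length and the treatment of fragments that map to several places are not given in the sources used here. Single FPKM values of MT1X, MT1E and MT1G are therefore uncertain to an unknown extent. The windows were compared between annotated transcripts without regard to genome position, so the shares do not measure that extent. The part of shared windows in these values was not tested.

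SLC30A1, the plasma membrane exporter of zinc, was at 11.6, 11.1 and 10.8 FPKM in shControl. In shEphexin1 it was at 14.5, 14.0 and 14.1 FPKM. The groups did not overlap, and the spread within each was small. The means were 11.2 ± 0.385 FPKM in the control libraries and 14.2 ± 0.231 FPKM in shEphexin1 (SD, n = 3 each), 127% of the control. On the log2 scale SLC30A1 differed by 0.35 (standard error 0.103, limma adjusted p = 0.0943), and the 95% interval ran from 1.08-fold to 1.504-fold, which leaves out a 2-fold difference. The exact permutation p was 0.1. The ratios by replicate number were 1.25, 1.26 and 1.31.

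MTF1, the transcription factor that senses zinc, was at 3.79, 3.46 and 3.07 FPKM in the control libraries and at 3.63, 3.56 and 3.44 FPKM in shEphexin1. The shEphexin1 values all lay within the shControl range. MTF1 differed by 0.046 on the log2 scale (standard error 0.143, adjusted p = 0.890 from limma), with a 95% interval from 0.819-fold to 1.30-fold. The exact permutation p was 0.8. The level of this mRNA does not report how much MTF1 protein is in the nucleus or bound to DNA.

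Of the 8 genes, 6 passed the filter of 0.1 FPKM in 3 libraries. A gene was called where limma gave at least a 2-fold difference and an adjusted p no larger than 0.025, and 0 of the 6 were called. Of all genes tested 1.89% were called, 0.893% as higher and 0.999% as lower in shEphexin1. At an unadjusted p under 0.05 there were 3, all higher in shEphexin1: MT2A, MT1X and SLC30A1. Of all genes tested, 10.5% met that limit in the same direction. The groups did not overlap for these 3 genes, with all shEphexin1 libraries above all shControl libraries, which held for 12.8% of all genes tested, and for 28.3% counting both directions. By level the order in every library was MT2A, MT1X, SLC30A1 and MTF1, with no overlap between neighbours, and then MT1E and MT1G, which overlapped each other and the genes listed at 0.

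The metallothioneins are short, GC-rich messages, and the level of short messages as a class differed between the libraries. The 484 other protein-coding genes with transcripts under 1000 bases and a mean of at least 1 FPKM had a median log2 fold change of -0.30, against -0.035 for all 12636 genes at that level. Measured from the mean of each gene over the 6 libraries, the median of the short genes was 0.21, -0.068 and 0.31 on the log2 scale in shControl replicates 1, 2 and 3 and -0.085, -0.36 and -0.0056 in shEphexin1. Replicate 2 was thus lowest and replicate 3 highest for short genes within each group, the same order as for MT2A and MT1X, whereas the difference between the groups ran the other way. With each library corrected for GC content and transcript length, the log2 fold change was 0.81 for MT2A (standard error 0.0917, adjusted p = 0.000823) and 0.79 for MT1X (standard error 0.0800, adjusted p = 0.000511), and 10.3% of all genes tested then passed 0.025 and were higher, while 3.41% were called. With replicates 1 and 3 alone, the log2 fold changes were 0.68 for MT2A (adjusted p = 0.0197) and 0.55 for MT1X (adjusted p = 0.0165), where 3.95% of all genes tested passed in that direction and 2.68% were called. The alternatives as a whole gave adjusted p values between 0.000218 and 0.263 for MT2A and between 0.000511 and 0.201 for MT1X. Quantile normalization alone put MT2A past 2-fold, at a log2 fold change of 1.08 (adjusted p = 0.00163). In that fit 309 of all genes tested were called, 134 of them as higher in shEphexin1. For SLC30A1, a long transcript of 5893 bases, the adjusted p was 0.0284 after the correction and 0.0520 with replicates 1 and 3 alone, within a range over all alternatives from 0.00334 to 0.312.

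The other members of the SLC30 family of metal transporters, several of which move zinc from the cytosol into vesicles or organelles, were read beside SLC30A1. Of 9 genes, 7 passed the filter and 0 were called, with a median log2 fold change of 0.19, against -0.0093 for all genes tested. SLC30A4, a vesicular transporter, was at 2.68, 3.18 and 1.96 FPKM in the control libraries and 4.03, 4.58 and 3.72 FPKM in shEphexin1, without overlap of the groups (log2 fold change 0.66, standard error 0.203, limma adjusted p = 0.103). The groups of SLC30A8 did not overlap either, at a mean of 0.044 FPKM in the control libraries and 0.162 FPKM in shEphexin1. Its log2 fold change was 0.85 (limma adjusted p = 0.207), and it passed the filter only through the shEphexin1 libraries. SLC30A5, SLC30A9 and SLC30A6, the most abundant members, had log2 fold changes of 0.19, -0.15 and 0.19.

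The SLC39 family carries zinc in the opposite direction, into the cytosol. Of 14 genes, 12 passed the filter and 0 were called, with a median log2 fold change of 0.15 and a range from -0.54 to 0.38. SLC39A1, SLC39A7 and SLC39A9 were the most abundant, at a mean of 40.4, 37.5 and 37.9 FPKM in the control libraries and 43.0, 41.8 and 36.9 FPKM in shEphexin1, and their groups overlapped. SLC39A6 had the only unadjusted p under 0.05 in the family (log2 fold change -0.41, limma adjusted p = 0.139). SLC39A8, which also takes up cadmium and manganese, had a log2 fold change of 0.38 (adjusted p = 0.260) with groups that did not overlap.

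Metallothioneins also bind copper, and the genes of copper handling included the only call among the zinc and copper genes examined. ATP7B, a copper-transporting ATPase, was at 1.10, 1.13 and 1.04 FPKM in the control libraries and fell to 0.376, 0.277 and 0.303 FPKM in shEphexin1. Its log2 fold change was -1.51 (standard error 0.212, adjusted p = 0.0105 from limma). The call was lost with any 1 library left out except shEphexin1 replicate 2, with adjusted p values from 0.0212 to 0.0737 over the 6 fits, and the log2 fold change was -0.66 with a pseudocount of 1 FPKM. All 10 genes of the list passed the filter, 9 had a negative log2 fold change and the median was -0.28. Of all 16020 genes tested, 8185 had a negative value, and the median was -0.0093. The short protein-coding genes with a mean of at least 1 FPKM had a median of -0.30. The part of message length in the values of this list was not tested. ATP7A, the related ATPase that exports copper, had a log2 fold change of -0.53 (adjusted p = 0.186) and the importer SLC31A1 one of -0.29 (adjusted p = 0.152). SOD1, an abundant copper and zinc enzyme, was at 164 ± 10.6 FPKM in the control libraries and 126 ± 0.660 FPKM in shEphexin1 (SD, n = 3 each), a log2 fold change of -0.38 (adjusted p = 0.0561). ATOX1 and COX17, short copper chaperone messages, had log2 fold changes of -0.0035 and -0.39.

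**Figure D1:**
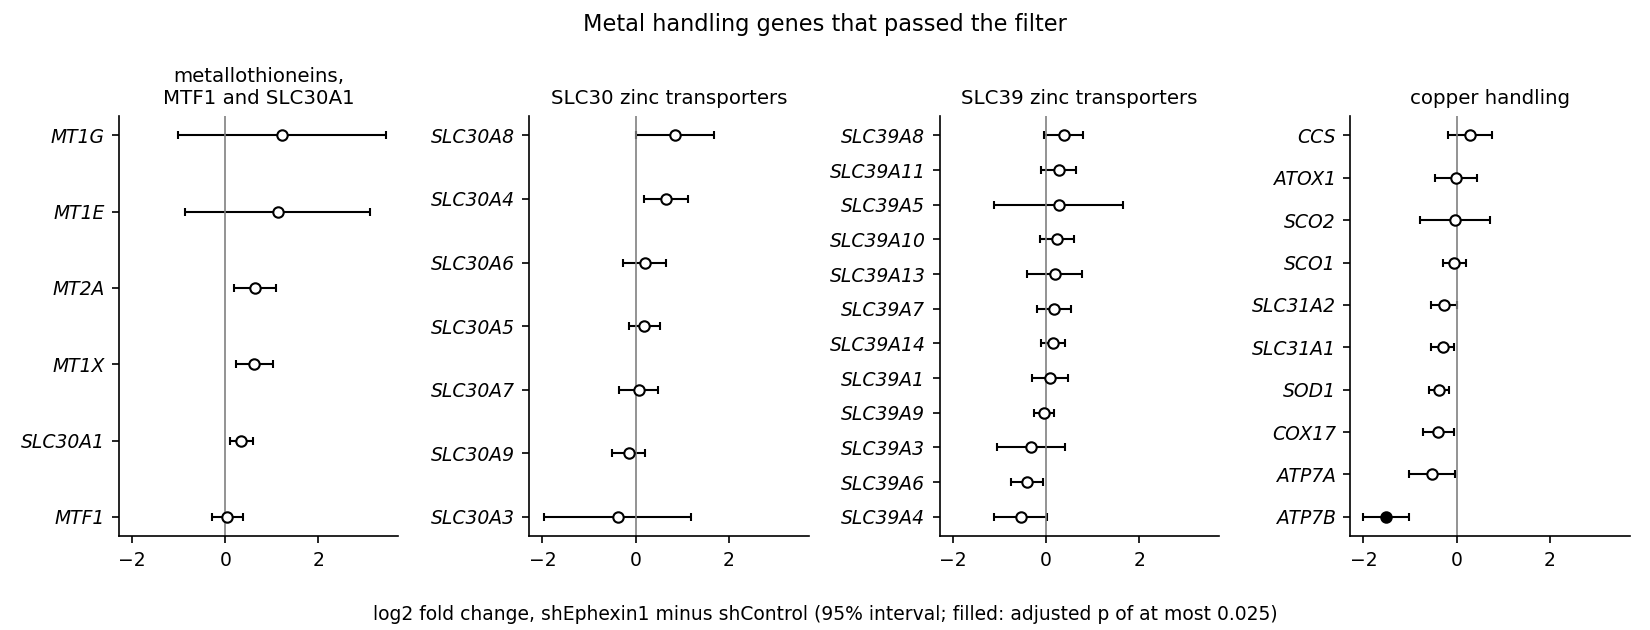
Log2 fold change of shEphexin1 against shControl (x axes) with 95% intervals for the genes of 4 groups that passed the filter, filled where the adjusted p was at most 0.025. ATP7B, at -1.51, is the only filled point, and the intervals of MT2A, MT1X and SLC30A1 lie above 0.

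Other genes that glucocorticoids induce were read beside the metallothioneins, together with NR3C1, the gene of the glucocorticoid receptor. Of these 10 genes, 7 passed the filter, with a median log2 fold change of 0.26. A positive value was found for 6 of them, NR3C1 included, and for 7835 of all 16020 genes tested. ERRFI1, a feedback inhibitor of the EGF receptor, was at 37.3, 42.5 and 36.0 FPKM in the control libraries and 61.6, 67.5 and 57.3 FPKM in shEphexin1, with an adjusted p of 0.0182 from limma and a difference under 2-fold (log2 fold change 0.69). That adjusted p was between 0.0270 and 0.114 with any 1 library left out. SGK1, a kinase, was at 7.64, 5.89 and 5.36 FPKM in the control libraries and 7.68, 7.83 and 8.24 FPKM in shEphexin1, where the groups did not overlap but replicate 1 differed little (log2 fold change 0.34, adjusted p = 0.248). PER1, a circadian clock gene, had a log2 fold change of 0.55 (adjusted p = 0.274) with overlapping groups, and ratios of shEphexin1 to shControl of 1.38, 1.46 and 1.65 by replicate number. DUSP1, a phosphatase of MAP kinases, had a log2 fold change of 0.26, FKBP5, a chaperone of the receptor, one of 0.17, and NR3C1, the receptor itself, one of 0.14. KLF9 was the 1 gene with a negative value, at -0.43 (adjusted p = 0.182). TSC22D3 and ZBTB16, which respond strongly in many cells, were under the filter.

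Genes of the heat shock and electrophile responses, which heavy metals also induce, gave values of both signs. All 13 passed the filter, 0 were called, 5 were positive and 8 were negative, and the median log2 fold change was -0.15. HMOX1, the heme oxygenase that cadmium induces, was at 9.56 ± 2.02 FPKM in the control libraries and 12.3 ± 1.02 FPKM in shEphexin1 (SD, n = 3 each) with overlapping groups. The heat shock genes HSPA1A and HSPA1B, near-identical copies whose reads may be divided between them, had log2 fold changes of 0.18 and -0.21. HSPA8, NQO1 and TXNRD1 were the most abundant, with log2 fold changes of -0.15, 0.25 and 0.097. SRXN1 had the smallest adjusted p of the list, 0.0654, at a log2 fold change of -0.51.

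The genes on either side of the cluster gave values on both sides of 0. Within 1000 kb of the MT2A start, 17 other genes had a mean of 1 FPKM or more. Their median log2 fold change was -0.010, 8 were positive and 0 were called. The nearest expressed neighbour on the one side, BBS2, had a log2 fold change of 0.31 (adjusted p = 0.131) and the nearest on the other side, NUP93, one of 0.022. NLRC5 and PLLP, which lie 381 and 676 kb away, had log2 fold changes of 0.90 (adjusted p = 0.0328) and 1.02 (adjusted p = 0.0375), above the threshold of 0.025. PLLP was chosen after its values were seen. NLRC5 passed that threshold in 6 of 18 alternatives and was called in 1 of them, without shEphexin1 replicate 2 (adjusted p = 0.0188), and its adjusted p ranged up to 0.140 with another library left out. MT1E and MT1G, which lie between MT2A and MT1X, stayed at or below 1.01 FPKM.

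The genes whose pattern over the 6 libraries was most like that of MT2A were looked up by the root mean square distance between log2 values, each centred on its own mean. Among genes with a mean of at least 1 FPKM that were not members, the 5 nearest to MT2A were PDE4A, ECE1, TMEM63A, PLOD3 and CCDC92, at distances from 0.0548 to 0.0603. ECE1, an endothelin-converting protease, was at 30.4, 26.0 and 32.9 FPKM in the control libraries and 46.4, 36.1 and 53.9 FPKM in shEphexin1. MT1X lay at a distance of 0.0939, and 50 of the 12632 genes compared were nearer to MT2A than MT1X was. SLC30A1 lay at a distance of 0.282 from MT2A, and 1688 of those genes were nearer. The 5 genes nearest to SLC30A1 were ZC3HAV1, MIR4435-2HG, TFAP2A, SLC7A6 and VCL, at distances from 0.0245 to 0.0373. VCL, which encodes the adhesion protein vinculin, was at 146, 145 and 147 FPKM in the control libraries and 185, 177 and 186 FPKM in shEphexin1. None of these 10 genes was called, and likeness over 6 libraries says nothing of shared function or control.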

How the data were processed

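RNA-seq was carried out on 6 libraries of total RNA, 3 shControl and 3 shEphexin1, grouped by their titles. Reads were aligned by the authors with TopHat 2.0.13 (GRCh37/hg19), and they deposited FPKM per gene and library from Cuffdiff 2.2.1, with geometric library normalization and pooled dispersion. The gene annotation is not given in the sources used here. Both versions also stand in the submitters' processing notes. No read counts are in the table used here, so sequencing depth is unknown and no counting interval is given. All 6 value columns were used.

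The 16020 of 26255 rows that reached 0.1 FPKM in 3 or more libraries were put on the scale log2(FPKM + 0.1). The groups were compared in limma 3.58.1 (trended eBayes, R 4.3.3) without a replicate block. The p values were adjusted by Benjamini-Hochberg over all 16020 rows. Fold changes are on this scale, which understates differences of genes near 0. The limits for a call, 0.025 for the adjusted p and 2 for the fold, are those of the study's scatter plot. Exact permutation tests (scipy 1.17.1) are two-sided. The fit was tested on simulated data. Positions, lengths and GC content come from GENCODE release 44 on GRCh37, which covered 95.1% of the genes tested. Where a name in the table was an older symbol, RefSeq and GENCODE name tables were used.

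The 8 genes, the lists and the alternatives were chosen with earlier results of these data known. Within the lists, genes were named when called, when at an adjusted p of at most 0.05, or as the 3 of highest level; others were named for their role after their values were seen. VIM, KRT8 and KRT18 served as markers of the cell line. The alternatives were other pseudocounts, filters, scalings, eBayes settings, thresholds, a correction for GC content and length, a replicate block, replicates 1 and 3 alone, and each library left out in turn.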

Additional observations from a re-analysis of the deposited data

How the results depend on the processing

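MT2A, MT1X and SLC30A1 were higher in shEphexin1 under all 18 alternative fits of each. The fits gave a log2 fold change from 0.48 to 1.08 for MT2A, from 0.47 to 0.79 for MT1X and from 0.32 to 0.40 for SLC30A1. With 1 library left out the ranges were 0.48 to 0.81 for MT2A, 0.47 to 0.75 for MT1X, 0.32 to 0.37 for SLC30A1 and -0.032 to 0.12 for MTF1, whose sign turned without shControl replicate 3. The adjusted p passed 0.025 for MT2A and MT1X under quantile normalization (log2 fold changes 1.08 and 0.77), with replicates 1 and 3 alone (0.68 and 0.55) and with the GC and length correction (0.81 and 0.79). MT2A was the 1 gene of the 8 called under quantile normalization and MT1E the 1 called with replicates 1 and 3 alone (2.59), while 0 were called under all other alternatives. The cause was not tested.

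The number of genes called over the whole table was 303. It was 139 with a pseudocount of 1 FPKM, 547 with the GC and length correction, 464 with the adjusted p limited to 0.05 and 546 with no fold threshold, and it lay between 61 and 316 with 1 library left out. It was lowest without shControl replicate 1, and 79 without shEphexin1 replicate 1, 109 without shEphexin1 replicate 3, 121 without shControl replicate 3 and 189 without shControl replicate 2.

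Libraries with the same replicate number deviated from their group means together in part. The correlations across genes were 0.091, 0.43 and 0.33 for numbers 1, 2 and 3. All 6 libraries correlated best with their own number, but shEphexin1 replicate 1 did so only narrowly. Its correlation was 0.091 with shControl replicate 1 and 0.089 with shControl replicate 3. The main fit did not treat libraries of the same number as pairs, because the study's methods name no block. With a replicate block 556 genes were called, 0 of them among the 8, and the adjusted p was 0.000453 for MT2A (log2 fold change 0.64), 0.000840 for MT1X (0.63) and 0.00690 for SLC30A1 (0.35). With the replicate block and the GC and length correction together, 534 genes were called and the log2 fold changes were 0.81, 0.79 and 0.40.

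Depth is unknown, which limits what can be said of the genes listed at or near 0, MT1E, MT1F, MT1G and MT1M.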
